A study of Mus musculus with 6 samples.

Results

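The genes described here are 6 inhibitors of cyclin-dependent kinases (CDKs), Cdkn1a, Cdkn1b, Cdkn2a, Cdkn2b, Cdkn2c and Cdkn2d, and 4 p53-responsive genes, Mdm2, Ccng1, Gadd45a and Trp53inp1. They were listed by symbol as known members of these groups, with earlier results of these data known, and all 10 were found among the 55487 gene identifiers of the count table. All 10 also passed the filter on low counts. RNA was sequenced from primary cells of C57BL/6 mouse skin, prepared by collagenase digestion of tissue from 4 to 6 mice aged 2 to 3 months and enriched with magnetic beads against CD31 (Pecam1), a surface protein of endothelial cells (ECs). The cultures were then kept for 48 h in medium with 5 mmol/L glucose (normal glucose, n = 3) or 20 mmol/L glucose (high glucose, n = 3). The comparison asks which transcripts differ after 48 h in high glucose. No osmotic control is among the 6 samples. Mice were pooled. The study counts replicates by group of mice, but no label ties the samples of a group to separate pools. The p-values therefore measure the spread between these samples, which may be technical.

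The 3 normal glucose libraries held 120192466, 135253663 and 124212369 counts, and the 3 high glucose libraries held 146881356, 121930179 and 139967043. Levels are given as CPM, counts scaled to the library's total after adjustment by the trimmed mean of M values (TMM). At this depth Cdkn2d, the gene with the fewest counts of the 10, had 2041 to 2680 per library.

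The labelled cell type was checked against marker genes. Pecam1, the protein used for enrichment, had only 9 to 19 counts per library, and Cdh5, the endothelial cadherin, had 91 to 242. Other markers of the list were detected at higher levels, with 4457 to 8030 counts for Flt1, 1113 to 1464 for Egfl7 and 576 to 777 for Kdr. Of 14 endothelial markers 10 passed the filter on low counts, and Tie1, Emcn, Cldn5 and Robo4 did not. Tie1, Cldn5 and Robo4 had at most 4 counts in any library. Esam, which passed the filter as Pecam1 did, had only 12 to 23 counts per library, and Vwf had 73 to 144. The summed level of the endothelial markers was 216, 234 and 243 CPM in normal glucose and 199.8, 194 and 199.5 CPM in high glucose, and Eng, which many mesenchymal cells also express, was the most abundant. Eng alone had 155 ± 12.3 CPM in normal glucose and 140 ± 3.48 CPM in high glucose (SD, n = 3). Flt1 followed with 55.3 ± 2.06 and 38.4 ± 0.153 CPM. The summed level of 12 fibroblast markers was 42209, 39313 and 42530 CPM in normal glucose and 74491, 76823 and 71949 CPM in high glucose, led by Col3a1. Several defining endothelial markers, Pecam1 among them, were thus near 0 while others were detected, and fibroblast markers were abundant, so the samples are called cultures here. Among the fibroblast markers 10 of 12 were higher and 1 was lower in high glucose, and 5 of 8 smooth muscle and pericyte markers were lower and 1 was higher (summed level 709, 634 and 699 CPM in normal glucose against 536, 533 and 560 CPM, led by Acta2). Macrophage and leukocyte markers summed to 9.43, 8.41 and 9.04 CPM with normal glucose, against 5.72, 6.00 and 6.52 CPM with high glucose, led by Csf1r. Of the 3 tested, 2 were lower (Csf1r and Cd68) and 0 higher, and 1 was lower without normal glucose replicate 2 or high glucose replicate 2 or 3. The number lower was also 1 without a filter. It was 1 too with the replicate number as a block or with offsets for GC content and length, alone or together. The counts of Ptprc, Adgre1 and Itgam, which were not tested, were 0 in the 3 high glucose libraries. With normal glucose they were 16, 0 and 0 for Ptprc, 0, 3 and 0 for Adgre1 and 10, 11 and 0 for Itgam. Keratinocyte markers summed to 4.96, 5.13 and 4.20 CPM with normal glucose, against 5.13, 4.70 and 4.93 CPM with high glucose. Over all 6 libraries Trp63 was the most abundant, and Krt10 was above it in normal glucose replicates 1 and 3. Of the 4 keratinocyte markers tested, 1 was higher (Krt5) and 0 lower, with 0 called when counts were halved or at least 1 CPM was asked for. The number higher was 2 or 3 without normal glucose replicate 1, 2 or 3 or high glucose replicate 2. Krt5 had 2, 2 and 2 counts with normal glucose, against 23, 12 and 14 with high glucose. It passed the filter on low counts only through the high glucose samples, so no difference is read from these calls. Krt14, which was not tested, had 2, 0 and 0 counts with normal glucose, against 35, 9 and 31 with high glucose. Of the 10 endothelial markers tested, 3 were lower (Cdh5, Flt1 and Egfl7, log2 fold changes -1.03, -0.53 and -0.23) and 2 were higher (Tek, 0.66, and Erg). Cdh5 had 231, 242 and 236 counts with normal glucose, against 130, 91 and 125 with high glucose. Erg had only 5, 8 and 2 counts with normal glucose, against 14, 15 and 12 with high glucose (adjusted p = 0.0453). It passed the filter on low counts only through the high glucose samples, so no difference is read from its call. The number higher was 1 with library size alone, with DESeq2 and when any sample other than normal glucose replicate 2 was left out. It was also 1 with upper quartile factors, without a filter, with at least 1 CPM asked for and with counts halved. The replicate number as a block, with or without offsets for GC content and length, gave 1 as well. The number lower was 5 with these offsets, with or without the block. The part of these marker differences in the results below was not tested.

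CDK inhibitors hold back the cell division cycle in its first gap phase, G1. The Cip/Kip proteins p21 (Cdkn1a), p27 (Cdkn1b) and p57 (Cdkn1c) bind several cyclin-CDK complexes, whereas the INK4 proteins p16 and p15 (Cdkn2a and Cdkn2b), p18 (Cdkn2c) and p19 (Cdkn2d) bind CDK4 and CDK6. Cdkn2a also encodes ARF, which restrains MDM2, the ubiquitin ligase that keeps the transcription factor p53 low; p53 in turn activates Cdkn1a, Mdm2, Ccng1 and many other genes.

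Of the 10 genes, 5 fell and 3 rose in high glucose, and 2 did not pass the test (edgeR's quasi-likelihood test, adjusted p under 0.05 over 19015 tested genes). Over all tested genes, 31.4% were called, 14.5% lower and 16.9% higher. The ranges of the groups were apart for all 10 genes, against 46.4% of all tested genes. The median log2 fold change (high over normal glucose) of the 10 was -0.26, beside 0.0062 for all tested genes. Scaling by library size alone instead of TMM moved the median of all tested genes by -0.115 and changed the split of all calls from 2757 lower and 3212 higher to 4884 lower and 1819 higher; none of the 10 genes changed direction under any scaling tried. The number of genes called higher was 2010 without high glucose replicate 1 and 1988 without high glucose replicate 3. With 3 samples against 3, the exact permutation test of a single gene cannot give a p below 0.1, and all 10 genes reached that value. In bulk RNA, fewer cells of a type and less RNA per cell cannot be told apart.

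**Figure D1:**
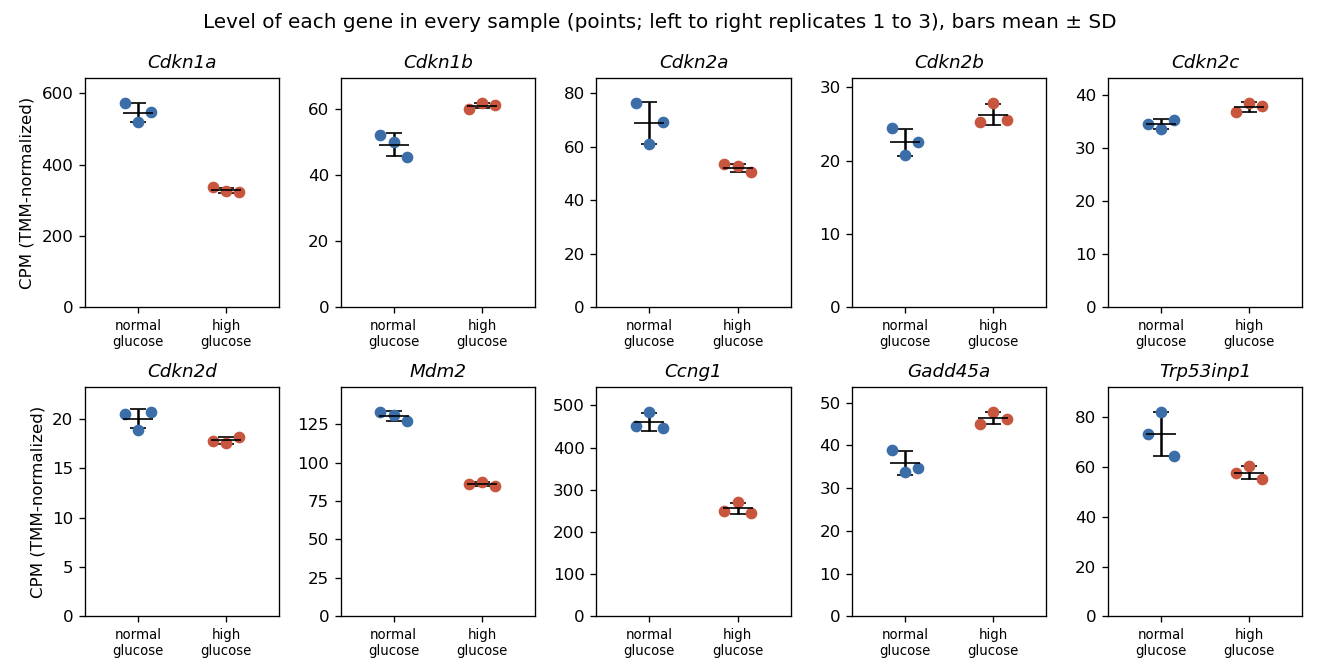
Level of each of the 10 genes in CPM (y axis, from 0) in the 3 normal glucose (blue) and 3 high glucose (red) samples; bars give the mean ± SD. The samples of the groups do not overlap for any of the 10 genes, and the gap is widest relative to the level for Ccng1, Cdkn1a and Mdm2.

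Cdkn1a (ENSMUSG00000023067), which encodes p21, the p53-induced inhibitor of CDK2 complexes, had the highest level per kilobase of the 10 genes. Its level was 573, 519 and 546 CPM with normal glucose, against 337, 325 and 322 CPM with high glucose. The groups were far apart, and the normal glucose samples had the wider spread. The mean fell from 546 ± 27.03 to 328 ± 7.63 CPM (SD, n = 3), and the fitted log2 fold change was -0.73 (SE 0.0543, adjusted p = 4.71e-06). The gene lies on the plus strand at chr17:29090976-29100727 (GRCm38), and its exons share 273 bases with AC167363.2 on the opposite strand. AC167363.2 had 109 to 311 counts per library, against 37838 to 73577 for Cdkn1a, and it fell as well (log2 fold change -0.70, adjusted p = 0.00717). The counting was not stated to use strand, so reads of a gene and an overlapping gene on the other strand cannot be told apart.

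Cdkn1b (ENSMUSG00000003031), the gene of p27, moved the other way. Its level was 52.1, 49.9 and 45.5 CPM with normal glucose, against 60.0, 61.7 and 61.1 CPM with high glucose. All high glucose samples lay above the normal glucose samples and close to each other. The log2 fold change was 0.31 (SE 0.0592, adjusted p = 0.00273), and 0.20 with library size alone, where the gene still passed. Cdkn1b lies at chr6:134920401-134925513 on the plus strand, and no other annotated exon overlaps it. The third Cip/Kip gene, Cdkn1c, which encodes p57 and is not among the 10, rose more, from 20.3 ± 1.52 to 36.1 ± 1.22 CPM (SD, n = 3, log2 fold change 0.83, adjusted p = 6.68e-06). Its exons share 625 bases with Gm44732 on the opposite strand, which had 4 to 15 counts per library. Per kilobase of exon, the level of Cdkn1a was 14.3 ± 1.04 times that of Cdkn1b in normal glucose and 6.90 ± 0.247 times in high glucose. Exon length here merges the exons of all annotated transcripts of a gene, not all of which need be expressed. Ratios of levels between genes depend on that length.

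Among the INK4 and ARF genes, Cdkn2a fell and its neighbour Cdkn2b rose. Cdkn2a (ENSMUSG00000044303) gives rise to p16 and, from an upstream first exon, ARF. Gene counts do not separate the transcripts. Its level was 76.3, 60.8 and 69.2 CPM with normal glucose, against 53.3, 52.6 and 50.4 CPM with high glucose. All high glucose samples were lower, and the normal glucose samples were spread more widely. The log2 fold change was -0.40 (SE 0.0769, adjusted p = 0.00288). Cdkn2b (ENSMUSG00000073802), which encodes p15, had 24.4, 20.7 and 22.5 CPM with normal glucose, against 25.3, 27.9 and 25.6 CPM with high glucose. Its groups were apart by less than 1 CPM, between normal glucose replicate 1 and high glucose replicate 1. The log2 fold change was 0.22 (SE 0.0700, adjusted p = 0.0361), and the call was lost without each of normal glucose replicates 2 and 3 and high glucose replicates 1, 2 and 3, with log2 fold changes from 0.15 to 0.23. It was also lost with library size alone (0.11), upper quartile factors (0.18), no filter (0.20) or the replicate number as a block (0.22). Both genes lie on the minus strand of chromosome 4, Cdkn2a at chr4:89274471-89294653 and Cdkn2b at chr4:89306299-89311039, with 11645 bases between them. Per kilobase of exon, the ratio of Cdkn2a to Cdkn2b was 3.70, 3.48 and 3.65 with normal glucose, against 2.50, 2.24 and 2.34 with high glucose.

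Neither of the remaining INK4 genes passed the test. Cdkn2c (ENSMUSG00000028551, p18) had 34.5, 33.6 and 35.4 CPM with normal glucose, against 36.8, 38.5 and 37.9 CPM with high glucose, and its log2 fold change was 0.13 (95% confidence interval, not adjusted for the number of genes, 0.018 to 0.24, adjusted p = 0.0757). Cdkn2d (ENSMUSG00000096472, p19) had 20.5, 18.9 and 20.7 CPM with normal glucose, against 17.8, 17.6 and 18.2 CPM with high glucose, and its log2 fold change was -0.17 (interval -0.30 to -0.037, adjusted p = 0.0522). The high glucose samples were above the normal ones for Cdkn2c and below them for Cdkn2d, with no overlap. Cdkn2d lay close to the threshold and passed it in 8 of 17 alternative settings, with log2 fold changes from -0.28 (library size alone) to -0.14 (offsets for GC content and length). One of these left out normal glucose replicate 2 (-0.22). Cdkn2c passed in 0 of the 17, and its log2 fold change with library size alone was 0.015. Cdkn2c lies at chr4:109660876-109667189 and Cdkn2d at chr9:21288410-21291407, both on the minus strand.

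The make-up of the summed CDK inhibitor level, in CPM per kilobase of exon, moved with the fall of Cdkn1a. The sum over the 6 genes was 281, 248 and 265 with normal glucose, against 197, 196 and 191 with high glucose. Cdkn1a held 57.3%, 58.8% and 57.9% of it with normal glucose, against 48.2%, 46.8% and 47.4% with high glucose. The shares of Cdkn1b (4.08 ± 0.324% to 6.88 ± 0.160%), Cdkn2b (6.12 ± 0.121% to 9.72 ± 0.501%), Cdkn2c (4.86 ± 0.250% to 7.23 ± 0.227%) and Cdkn2d (4.81 ± 0.168% to 5.83 ± 0.188%) were higher in every high glucose sample (SD, n = 3). The exact two-sided permutation p was 0.1, the smallest possible, for each of these shares and for that of Cdkn1a. Cdkn2a held 22.1 ± 1.13% and 22.9 ± 0.332%, and its groups overlapped (exact permutation p = 0.4). Without division by length they did not, at 8.66% to 9.773% against 9.777% to 10.06% (exact permutation p = 0.1). Without division by length, the difference in share was 5.01 percentage points for Cdkn1b and 1.98 for Cdkn2b, against 2.80 and 3.60 per kilobase, so which of these gained more depends on the scale. A larger share is not a rise of the gene itself, and the log2 fold change of Cdkn2d was -0.17. Shares of a whole depend on each other, and with 3 samples against 3 the exact permutation test used here cannot pass 0.05.

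**Figure D2:**
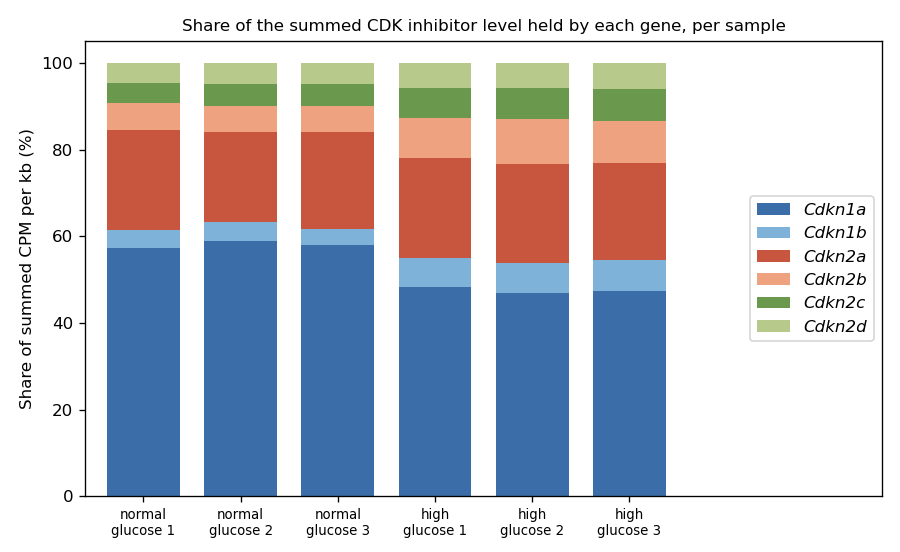
Share of the summed level of the 6 CDK inhibitors, without Cdkn1c (CPM per kilobase of exon, y axis in percent, stacked to the whole), held by each of the 6 genes in every sample. Cdkn1a takes 57.3% to 58.8% in the normal glucose samples and 46.8% to 48.2% in the high glucose samples, while Cdkn2a takes between 20.9% and 23.1% in all 6.

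Of the 4 p53-responsive genes, 3 fell and 1 rose. Ccng1 (ENSMUSG00000020326), which encodes cyclin G1, a p53-induced partner of a phosphatase that acts on MDM2, had the largest fold change of the 10 genes. Its level was 451, 485 and 447 CPM with normal glucose, against 251, 272 and 245 CPM with high glucose. The highest value with high glucose was far below the lowest with normal glucose. The mean fell from 461 ± 20.8 to 256 ± 13.8 CPM (SD, n = 3), and the fitted log2 fold change was -0.85 (SE 0.0590, adjusted p = 3.10e-06). Mdm2 (ENSMUSG00000020184) had 133, 131 and 127 CPM with normal glucose, against 86.4, 87.2 and 84.7 CPM with high glucose. Its spread within each group was the narrowest of the called genes that fell, relative to the gap. The log2 fold change was -0.60 (SE 0.0483, adjusted p = 8.53e-06).

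Trp53inp1 (ENSMUSG00000028211), whose product takes part in autophagy and in p53-driven cell death, had 73.5, 82.2 and 64.6 CPM with normal glucose, against 57.8, 60.5 and 55.1 CPM with high glucose. Normal glucose replicate 3 lay nearest to the high glucose samples. The log2 fold change was -0.35 (SE 0.0821, adjusted p = 0.00934). Gadd45a (ENSMUSG00000036390), a stress sensor that is induced both by p53 and without it, had 39.0, 33.7 and 34.7 CPM with normal glucose, against 45.1, 47.8 and 46.1 CPM with high glucose. It was higher in every high glucose sample, opposite to the other 3 genes. The log2 fold change was 0.37 (SE 0.0638, adjusted p = 0.00146). Its exons share 337 bases with the opposite-strand gene E230016M11Rik, which had 46 to 92 counts per library against 4447 to 6399 for Gadd45a. In GRCm38 Ccng1 lies at chr11:40748552-40755311, Mdm2 at chr10:117688875-117710758 and Gadd45a at chr6:67035096-67037457, all on the minus strand, and Trp53inp1 at chr4:11156431-11174379 on the plus strand.

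**Figure D3:**
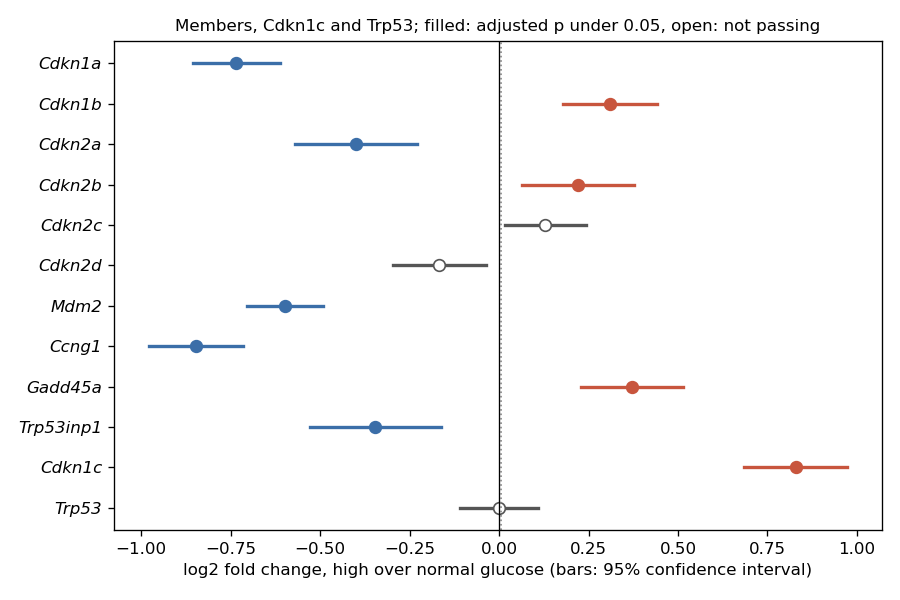
Log2 fold change of high over normal glucose (x axis) for the 10 genes, Cdkn1c and Trp53, with bars for the 95% confidence interval of the fit, not adjusted for the number of genes; filled points passed an adjusted p of 0.05. Points left of 0 are lower in high glucose; Ccng1 (-0.85) and Cdkn1a (-0.73) lie farthest left, Cdkn1c (0.83) farthest right, and Trp53 at 0.

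Promoter windows were searched for short motifs, and those of Cdkn1a, Ccng1, Mdm2 and Gadd45a are shown because the first 3 genes fell together and Gadd45a rose. RefSeq windows (GRCm38.p6, 250 bases before to 50 after a start) matched 9 of the 10 genes, with 12 windows in all, and Trp53inp1 was not matched. The p53 half-site consensus, which reads alike on both strands, was found for 5 genes: Cdkn1a, Cdkn2d, Mdm2, Ccng1 and Gadd45a. Of all 32817 windows of 300 bases, 8.36% held it. Only the window of the upstream Cdkn1a start held a pair of half-sites with at most 13 bases between them, here 12, which 0.0731% of all windows held. The same window held CATGNNNNNNCATG, overlapping the half-site nearer the start, as did 0.710% of all windows. The other Cdkn1a window, at chr17:29093519-29093818, held 0 half-sites. Only full matches to the half-site consensus were counted. The windows below are printed 5′ to 3′ on the gene's strand with half-sites in capitals, for Cdkn1a at chr17:29090729-29091028 (plus), Ccng1 at chr11:40755237-40755536 (minus), Mdm2 at chr10:117710709-117711008 (minus) and Gadd45a at chr6:67037358-67037657 (minus).
Cdkn1a: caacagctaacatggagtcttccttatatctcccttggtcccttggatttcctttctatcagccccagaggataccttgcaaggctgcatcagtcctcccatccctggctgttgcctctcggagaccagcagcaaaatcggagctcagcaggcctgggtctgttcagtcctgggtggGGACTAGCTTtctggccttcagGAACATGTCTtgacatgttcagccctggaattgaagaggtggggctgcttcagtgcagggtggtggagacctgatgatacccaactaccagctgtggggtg
Ccng1: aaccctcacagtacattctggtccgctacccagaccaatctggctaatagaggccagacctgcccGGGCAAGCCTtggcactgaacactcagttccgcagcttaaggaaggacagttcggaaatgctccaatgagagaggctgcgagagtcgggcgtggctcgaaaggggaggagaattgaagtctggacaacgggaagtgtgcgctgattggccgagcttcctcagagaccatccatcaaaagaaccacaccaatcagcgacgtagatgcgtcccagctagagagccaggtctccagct
Mdm2: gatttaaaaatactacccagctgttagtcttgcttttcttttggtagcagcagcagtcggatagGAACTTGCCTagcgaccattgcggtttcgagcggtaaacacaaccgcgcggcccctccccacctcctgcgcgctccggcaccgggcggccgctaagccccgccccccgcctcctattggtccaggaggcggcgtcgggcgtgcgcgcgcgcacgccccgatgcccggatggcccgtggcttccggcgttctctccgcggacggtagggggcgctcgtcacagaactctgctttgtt
Gadd45a: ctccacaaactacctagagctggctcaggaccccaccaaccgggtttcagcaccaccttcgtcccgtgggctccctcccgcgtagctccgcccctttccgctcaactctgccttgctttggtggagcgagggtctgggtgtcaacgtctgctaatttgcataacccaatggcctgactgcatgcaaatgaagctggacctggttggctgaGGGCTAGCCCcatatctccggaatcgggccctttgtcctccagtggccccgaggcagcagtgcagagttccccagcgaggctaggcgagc

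In Cdkn1a the half-sites lay 73 to 64 and 51 to 42 bases before the upstream start, in Ccng1 185 to 176, in Mdm2 186 to 177 and in Gadd45a 40 to 31 bases before the start. A match was thus found for 3 genes that fell (Cdkn1a, Ccng1, Mdm2), 1 that rose (Gadd45a) and Cdkn2d, which did not pass, and for Trp53 itself. Cdkn2a, which fell, Cdkn1b and Cdkn2b, which rose, and Cdkn2c, which did not pass, had 0 matches in their windows. The Sp1-type box GGGCGG, searched on both strands like the motifs that follow, was found for 8 of the 9 genes, all but Ccng1, and in 35.6% of all windows. The forkhead motif GTAAACA was found for 1 of the 9 genes, Mdm2 (3.65% of all windows), and the E-box CACGTG for 1 of the 9, Cdkn2c, and also for Trp53 (7.15%). These matches describe letters in a short window and were not tested for binding.

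Trp53, which encodes p53, had 73.4 ± 0.614 CPM in normal glucose and 73.3 ± 2.27 CPM in high glucose (SD, n = 3). Its log2 fold change was -0.0012, with a 95% confidence interval of -0.11 to 0.11 (adjusted p = 0.990), and it was -0.12 with library size alone and 0.0062 without high glucose replicate 2, neither passing the test. The level of Cdkn1a per kilobase was 8.47 ± 0.442 times that of Trp53 in normal glucose and 5.10 ± 0.212 times in high glucose, and that of Mdm2 was 1.41 ± 0.0436 and 0.935 ± 0.0426 times. Of 20 genes for p53 and its upstream regulators, 19 were tested, 4 were lower, 4 were higher and 11 did not pass (median log2 fold change 0.087). Among all tested genes 14.5% were lower and 16.9% higher. The checkpoint kinase Chek1 fell (-0.82), and the acetyltransferase Ep300 (0.60) and the DNA-dependent protein kinase Prkdc (0.60) rose. Ep300 varied widely in normal glucose, 54.4 ± 11.8 CPM (SD, n = 3). With offsets for GC content and length, the log2 fold changes of Ep300 (0.39) and Prkdc (0.38) were smaller and still passed. The deubiquitinase Usp7 (0.12, adjusted p = 0.0899) and the ubiquitin ligase Cop1 (0.087, adjusted p = 0.203) did not pass, and Cop1 had -0.028 with library size alone. The median of this list turned to -0.028 with library size alone. The number of genes called higher was 2 with library size alone and with offsets for GC content and length, with or without the replicate block. It was also 2 without normal glucose replicate 3 or high glucose replicate 1, and 8 without normal glucose replicate 2.

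Other p53-responsive genes were mostly lower. Of 35 such genes, 21 fell, 4 rose and 10 did not pass, with a median log2 fold change of -0.33. Among all tested genes 14.5% were lower and 16.9% higher. Pmaip1, the death-promoting NOXA, fell from 8.44 ± 1.39 to 3.89 ± 0.278 CPM (SD, n = 3, log2 fold change -1.12, adjusted p = 6.17e-05). Plk2, a polo-like kinase, fell from 56.7 ± 2.40 to 28.4 ± 1.06 CPM (SD, n = 3, log2 fold change -0.999, adjusted p = 7.14e-07). Steap3, a metalloreductase, went the other way, from 100.5 ± 4.18 to 187 ± 1.30 CPM (SD, n = 3, log2 fold change 0.90, adjusted p = 7.83e-07). Abhd4 (0.15, adjusted p = 0.0721) and Ddit4 (0.072, adjusted p = 0.403) did not pass. Abhd4 passed with offsets for GC content and length (0.14, adjusted p = 0.0478), with or without the replicate block, and Ddit4 had -0.042 with library size alone. Of 6 close relatives of the 10 genes, 5 rose and 0 fell, with a median log2 fold change of 0.37. The number that rose was 3 with library size alone and without high glucose replicate 1 or 3. Besides Cdkn1c, Gadd45b rose from 25.6 ± 1.76 to 39.0 ± 1.65 CPM and Gadd45g from 76.2 ± 8.77 to 109 ± 3.30 CPM (SD, n = 3, log2 fold changes 0.61 and 0.51), so all 3 Gadd45 genes were higher, also under every scaling tried. Ccng2, the relative of Ccng1, did not pass (0.024, adjusted p = 0.785), and its sign was negative in 5 of 17 settings, down to -0.091 with library size alone.

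**Figure D4:**
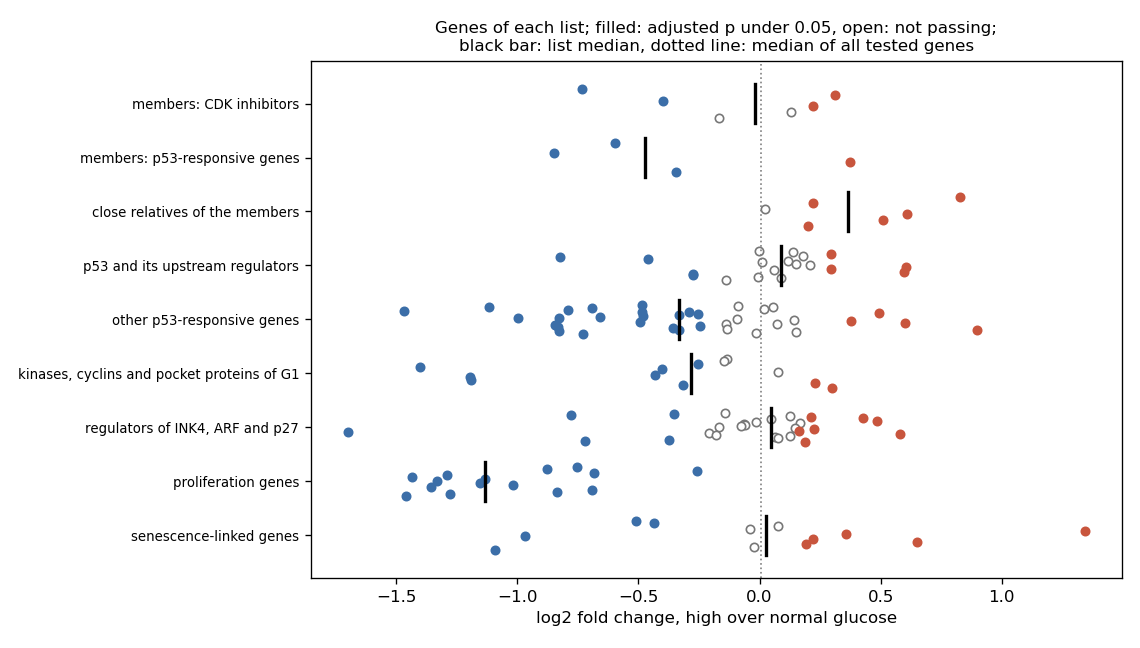
Log2 fold change of high over normal glucose (x axis) for the tested genes of each list (rows); filled points passed an adjusted p of 0.05 (blue lower, red higher), black bars give list medians and the dotted line the median of all tested genes (0.0062). All 15 proliferation genes and most of the other p53-responsive genes lie left of 0, and the close relatives lie at or right of 0.

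Of 12 kinases, cyclins and pocket proteins that CDK inhibitors act through or upon, 7 fell, 2 rose and 3 did not pass (median -0.28). Among all tested genes 14.5% were lower and 16.9% higher. Cyclin D1 (Ccnd1), which drives CDK4 and CDK6, fell from 168 ± 6.65 to 63.5 ± 1.42 CPM (SD, n = 3, log2 fold change -1.40, adjusted p = 5.57e-08). The S-phase cyclins Ccne2 (-1.19) and Ccna2 (-1.19) fell as well. Cdk4 (-0.15, adjusted p = 0.0830) and Ccnd3 (0.075, adjusted p = 0.372) did not pass. Cdk4 passed in 6 of 17 settings, among them library size alone (-0.26) and the fit without normal glucose replicate 2 (-0.21), and Ccnd3 had -0.039 with library size alone. The number of these 12 genes called higher was 1 with library size alone and without any of normal glucose replicates 1 and 3 and high glucose replicates 1, 2 and 3. It was also 1 with upper quartile factors and without a filter. All 15 proliferation genes fell, with a median of -1.14. Among them Cdc25c (-1.46), Ccnb2 (-1.43) and Birc5 (-1.36), genes of the entry into and passage through mitosis, had the largest falls. Cdkn1a and the proliferation genes were lower in the same cultures, and how these differences relate was not tested.

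Of 27 regulators of the INK4 and ARF genes and of p27, 5 fell, 7 rose and 15 did not pass. Shares over all tested genes were 14.5% lower and 16.9% higher. The balance of the 27 turned to 8 lower and 3 higher with library size alone, and to 8 lower and 4 higher with upper quartile factors or with offsets for GC content and length. Calls over all tested genes moved too, from 2757 lower and 3212 higher to 4884 and 1819 with library size alone. They were 3407 lower and 2622 higher with upper quartile factors, and 3562 and 3055 with the offsets. The regulators' median log2 fold change of 0.046 turned to -0.070 with library size alone and to -0.032 with offsets for GC content and length. The number of regulators called higher was 2 without high glucose replicate 1, 4 without replicate 2 and 3 without replicate 3. Id1, an inhibitor of helix-loop-helix factors that restrains Cdkn2a in other cells, had the largest fall, from 76.3 ± 9.15 to 23.5 ± 1.57 CPM (SD, n = 3, log2 fold change -1.70, adjusted p = 4.05e-07). Klf4 (-0.72) and Fbxo5 (-0.78) fell too. Zbtb7a (0.064, adjusted p = 0.379) and E2f1 (-0.18, adjusted p = 0.0619) did not pass. E2f1 passed in 10 of 17 settings, all with a negative log2 fold change, among them the fit without normal glucose replicate 2 (-0.25). Zbtb7a had -0.051 with library size alone and -0.084 with offsets for GC content and length. Of 12 senescence-linked genes, 4 fell, 5 rose and 3 did not pass. Their median log2 fold change of 0.028 was close to 0, at -0.087 with library size alone (where 3 rose), -0.015 with upper quartile factors and 0.0042 without high glucose replicate 3. Il6 rose from 15.8 ± 1.30 to 40.0 ± 1.70 CPM (SD, n = 3, log2 fold change 1.34, adjusted p = 3.85e-07), whereas the chemokine Ccl2 (-1.09) and the matrix protease Mmp3 (-0.97) fell. Glb1, the lysosomal beta-galactosidase, did not pass (0.077, adjusted p = 0.261) and had -0.038 with library size alone.

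Per kilobase of exon, merged over all annotated transcripts, the 10 genes kept a wide order of levels, which depends on the annotated lengths. In normal glucose Cdkn1a (154 ± 7.61 CPM per kilobase) and Ccng1 (131 ± 5.94) were followed by Cdkn2a (58.7 ± 6.60), Mdm2 (25.6 ± 0.581), Gadd45a (20.3 ± 1.59) and Cdkn2b (16.2 ± 1.33). The ranges of Cdkn2c (12.8 ± 0.336), Cdkn2d (12.7 ± 0.628), Trp53inp1 (11.3 ± 1.36) and Cdkn1b (10.8 ± 0.738) overlapped from each to the next (SD, n = 3 throughout). In high glucose no neighbouring ranges overlapped. Gadd45a (26.3 ± 0.778) and Cdkn2b (18.9 ± 1.01) then stood above Mdm2 (16.9 ± 0.253), and Cdkn1b (13.4 ± 0.186) stood above Cdkn2d (11.3 ± 0.207) and Trp53inp1 (8.93 ± 0.420). The genes whose log2 CPM over the 6 samples was most alike that of Ccng1, among 12478 genes, were Fibin (Pearson r = 0.9989), Cenpe (0.9987) and Stil (0.9986). These r values are a description over samples of both groups, so they hold the difference between the groups.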

How the data were processed

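RNA of 6 cultures was measured by polyA RNA sequencing. Per the study's methods and the submitters' processing notes, the authors trimmed reads with Trimmomatic, aligned them to GRCm38 (mm10) with HISAT2 and made gene counts with StringTie; versions, annotation and strand setting are not given in the sources used here. The deposited counts were used as given. Whether both mates of a pair were counted is not given in the sources used here, so halved counts were an alternative. Identifiers were matched to symbols for 55141 of 55487. Exon lengths, merged over all annotated transcripts of a gene, and positions came from GENCODE vM21.

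Genes were filtered (edgeR filterByExpr, minimum count 10, total 15), scaled by TMM and tested with edgeR 4.0.16 (glmQLFit, glmQLFTest; R 4.3.3), with Benjamini-Hochberg adjustment over all 19015 tested genes. SEs were derived from the fold change and its F statistic. Fits were tested on simulated data. Alternatives were DESeq2 1.42.0, likelihood ratio tests, other scalings, filters and thresholds, a replicate block, each sample left out, and trends on GC content and length (mgcv). All 10 genes, Trp53 and Cdkn1c were named, with at most 3 called genes of largest fold change (mean log2 CPM of at least 1) and 2 of highest mean that did not pass per list; for Ccng1, the 3 genes most alike by Pearson correlation. One gene selected by this rule is not reported here. Markers of other cell types were named freely. The members and lists were chosen with earlier results of these data known.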

Additional observations from a re-analysis of the deposited data

How the results depend on the processing

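Under 17 alternative settings, Cdkn1a, Cdkn1b, Cdkn2a, Mdm2, Ccng1, Gadd45a and Trp53inp1 passed the test in every setting with the same sign, and Cdkn2c in 0. Of 170 log2 fold changes of the 10 genes, 9 lost their call (Cdkn2b) and 8 gained one (Cdkn2d). With each sample left out in turn, Cdkn2b ranged from 0.15 to 0.26 and Cdkn2d from -0.22 to -0.15. Of 561 values for 33 other genes selected for naming, 19 gained a call and 0 lost one. For all of these, the cause was not tested.

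With library size alone, 4884 genes were called lower and 1819 higher, and the log2 fold change was 0.11 for Cdkn2b and -0.28 for Cdkn2d. Genes called higher were then 1 CDK inhibitor, 3 close relatives, 2 genes for p53 and its regulators, 1 G1 gene, 3 senescence-linked genes and 1 endothelial marker. Of the INK4, ARF and p27 regulators 8 were then lower and 3 higher, with a median of -0.070, and the median for p53 and its regulators was -0.028. With upper quartile factors, Cdkn2b had 0.18 and Cdkn2d -0.21, 1 CDK inhibitor, 1 G1 gene and 1 endothelial marker were higher, and 8 regulators were lower and 4 higher. Cdkn2d had -0.18 with DESeq2 and with RLE factors, and DESeq2 called 1 endothelial marker higher.

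Without a filter, Cdkn2b had 0.20, and 1 CDK inhibitor, 1 G1 gene, 4 regulators, 1 endothelial and 2 keratinocyte markers were higher and 1 macrophage marker lower. With at least 1 CPM in 3 samples, Cdkn2d had -0.18, 8 regulators were lower (median -0.00066), and 1 endothelial and 0 keratinocyte markers were higher. With counts halved, Cdkn2d had -0.19, and 1 endothelial and 0 keratinocyte markers were higher. With offsets for GC content and length, Cdkn2d had -0.14, 2 genes for p53 and its regulators were higher, 8 regulators of INK4, ARF and p27 were lower and 4 higher (median -0.032), and 5 endothelial markers and 1 macrophage marker were lower.

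With the replicate number as a replicate block, 2418 genes were called lower and 2909 higher, Cdkn2b had 0.22 (adjusted p = 0.0692), and 1 CDK inhibitor and 1 endothelial marker were higher and 1 macrophage marker lower. With the replicate block and the offsets together, 2 genes for p53 and its regulators, 4 regulators of INK4, ARF and p27 (median -0.033) and 1 endothelial marker were higher, and 5 endothelial markers and 1 macrophage marker were lower. Over genes, the differences of a sample from its group's mean correlated between equal replicate numbers at -0.0650, 0.0405 and 0.0449, and not every sample correlated best with its own number (replicate 1 of both groups and normal glucose replicate 3 did not). Whether equal numbers share a cell preparation is not given in the labels, so the numbers were not treated as pairs.

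An adjusted p under 0.01 left 1671 genes lower and 1946 higher. Asking also for an absolute log2 fold change of at least 0.5 at 0.05 left 1372 and 1125, with 3 of the 10 genes lower and 0 higher. With each sample left out in turn, 1988 to 3149 genes were called higher, with 1 to 2 CDK inhibitors, 3 to 5 close relatives, 2 to 8 genes for p53 and its regulators, 1 to 2 G1 genes, 2 to 7 regulators of INK4, ARF and p27 (median -0.022 to 0.072), 1 to 2 endothelial markers and 1 to 3 keratinocyte markers (median -0.071 to 0.36), and 1 to 2 macrophage markers were called lower. Without division by length, the differences in share were 5.01 percentage points for Cdkn1b, 1.98 for Cdkn2b and 0.706 for Cdkn2d, and the groups of Cdkn2a no longer overlapped (exact permutation p = 0.1).

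Limits: with 3 samples a group the exact permutation test gives no p below 0.1, and no label ties the samples to separate pools of mice. Pecam1, Esam, Erg, Tie1, Cldn5, Robo4 and Emcn were near 0 in libraries labelled as endothelial. Cdh5, Vwf and Tek were low, while Eng, Flt1, Egfl7 and Kdr were detected at higher levels. Transcripts of Cdkn2a were not separated, protein levels were not measured, and no osmotic control was among the samples.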
